A study of Mus musculus with 36 samples.

Results

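The 10 genes described here, Gnal, Gng13, Gnb1, Adcy3, Cnga2, Cnga4, Cngb1, Ano2, Omp and Stoml3, encode parts of the olfactory transduction cascade and 2 proteins found with it in the same neurons. They were chosen by name among 57010 gene identifiers in the 3 deposited count tables. All 10 were found and all 10 passed the filter on low counts in each table. The libraries hold RNA pulled down with an antibody against phosphorylated ribosomal protein S6 (pS6), a mark that increases on ribosomes of neurons that have recently been active. The tissue was olfactory epithelium of wild-type C57BL/6J males aged 8 weeks. Each mouse sat alone in an odor-free chamber for 4 h and then met 1 condition for 90 min.

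There were 36 libraries in 12 groups of 3 biological replicates, run as 3 sets of 12 that the labels give as batches. The AD set held a no-odor group with empty filter paper, acetophenone, decanal, and the acetophenone and decanal mixture (AD mixture). The OC set held its own no-odor group, octanal, cis-3-hexenol, and the mixture of both (OC mixture). The FM set held its no-odor group, a floral fragrance, a mint fragrance, and the floral and mint mixture (FM mixture). Each odor was given as 10 µL on paper, the single odorants undiluted and the AD and OC mixtures in equal parts. No library of total RNA from the same tissue was analysed here, so the amount of a transcript and the share of it on pS6-bearing ribosomes cannot be told apart. In whole tissue, fewer cells of a type and less RNA per cell cannot be told apart either.

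In an olfactory sensory neuron, an odorant receptor in the cilia activates the G protein Golf, whose alpha subunit is encoded by Gnal. Golf stimulates adenylyl cyclase 3 (Adcy3), cyclic AMP opens a cation channel built from Cnga2, Cnga4 and Cngb1, and the calcium that enters opens the chloride channel Ano2, which amplifies the current. Gnb1 and Gng13 encode the beta and gamma subunits that pair with the Golf alpha subunit. Omp, the olfactory marker protein, is a cytoplasmic protein of mature olfactory neurons that buffers cyclic AMP, and Stoml3 is a stomatin-like membrane protein of their cilia.

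Library totals ran from 16 M to 26.4 M counts, and the 10 genes took 0.831% to 2.58% of a library. The 16 other markers of mature olfactory neurons were detected in every library. Blood and bone were present too: summed red blood cell markers ran from 2570.4 CPM (counts scaled to a common library total) in an acetophenone library to 92800.3 CPM in a no-odor library of the OC set. Of the 5 skeletal muscle markers, Myh4 was at 0 in 35 libraries, and Ckm, Myl1 and Tnnt3 in 2, 3 and 12. Acta1 was detected in every library, at 0.545 to 19.7 CPM. In the OC set every odor library had a lower red cell sum than every no-odor library, and the values stand beside the marker lists. Acetophenone replicate 2 and octanal replicate 2 stood apart from their groups in the cascade genes, and the changes without each are given below.

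Most of the cascade genes were higher with odor, and none was called lower. Across the 9 comparisons of an odor with the no-odor group of its set, 69 of 90 tests of a member were called higher and 0 lower by edgeR's quasi-likelihood test at a Benjamini-Hochberg adjusted p under 0.05, with adjustment over all genes tested. Odors of a set share 1 no-odor group, so their comparisons are not independent. Acetophenone raised 9 of the 10 genes, where 4.22% of all genes tested were called higher and 1.27% lower, decanal 6 (10.8% higher, 11.5% lower) and the AD mixture 6 (10.9% higher, 10.4% lower). Octanal raised 10 (17.9% higher, 14.4% lower), cis-3-hexenol 7 (2.58% higher, 3.16% lower) and the OC mixture 10 (17.7% higher, 14.8% lower). Floral raised 5 (8.7% higher, 5.35% lower), mint 9 (7.1% higher, 4.07% lower) and the FM mixture 7 (6.42% higher, 3.22% lower). Each count lies above the share of all genes called higher in its comparison. The median log2 change of the 10 genes was 0.87, 0.34 and 0.41 in the AD set, 1.36, 0.78 and 1.5 in the OC set, and 0.32, 0.52 and 0.43 in the FM set, in the order odor, odor, mixture. The median over all genes lay between -0.05 and 0.05 in every one of these comparisons.

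The cis-3-hexenol count is the least firm of these. Each of its 7 calls had an adjusted p between 0.0249 and 0.0462 by edgeR's quasi-likelihood test. With any 1 of the 3 no-odor libraries or cis-3-hexenol replicate 1 or 2 left out the count was 0, and without cis-3-hexenol replicate 3 it was 1.

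**Figure D1:**
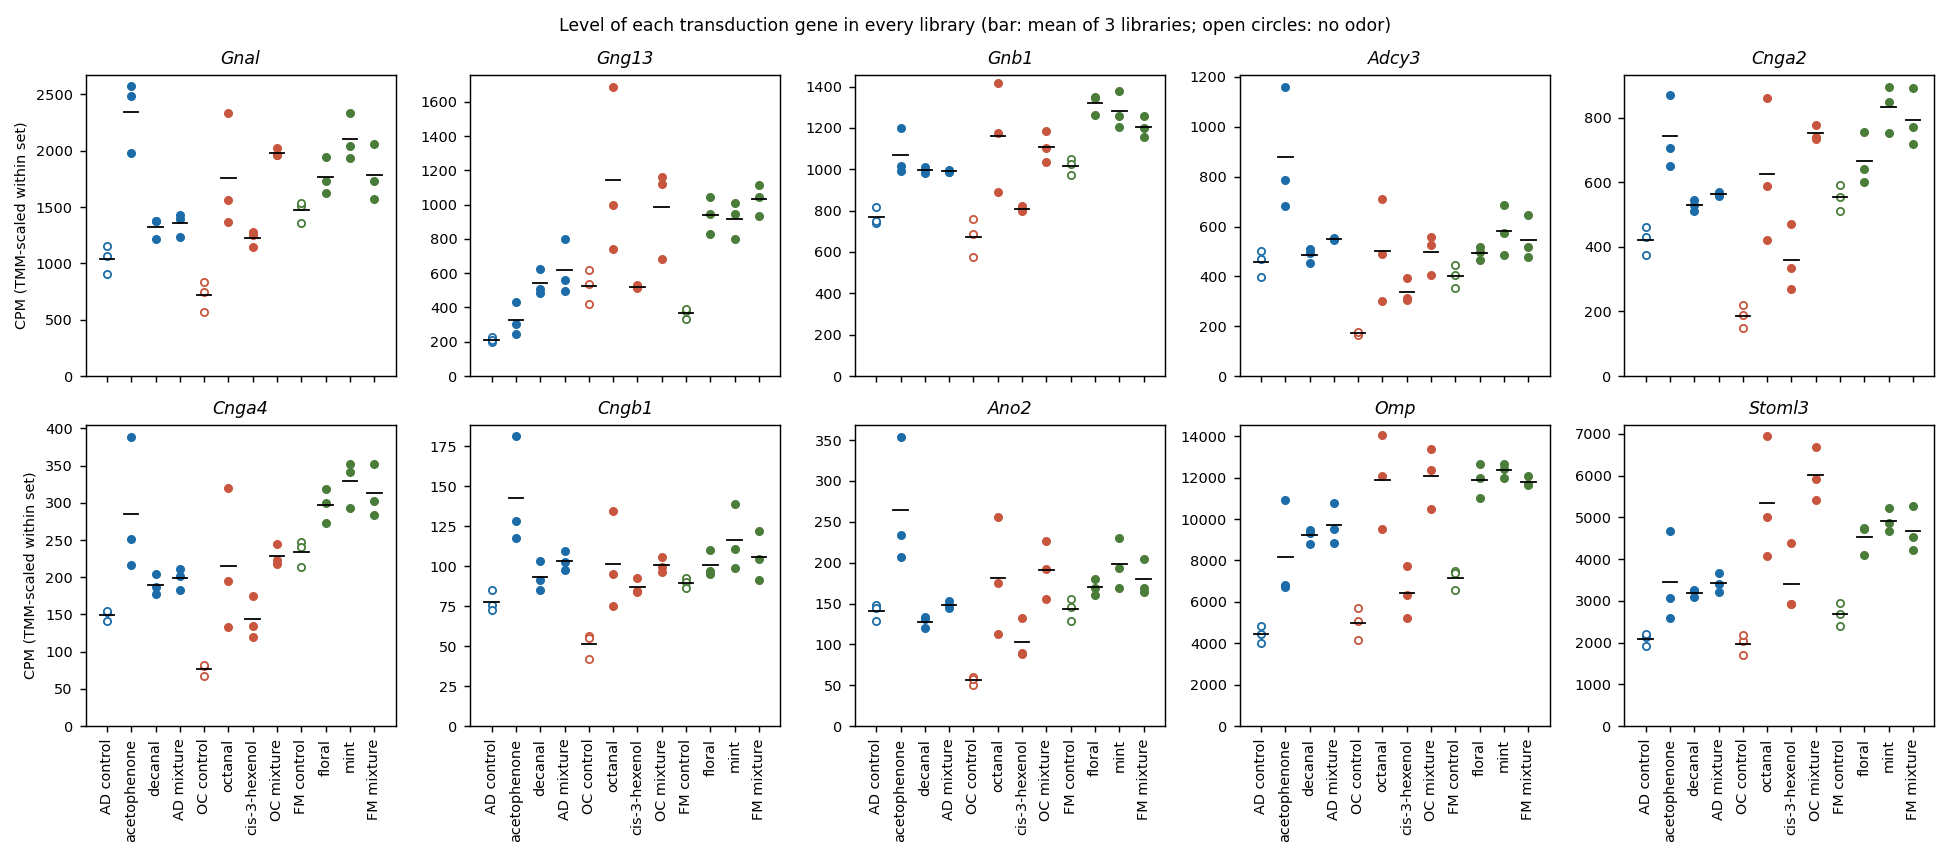
CPM of each of the 10 genes (y axis, linear, from 0, scaled by TMM within each set) in the 12 groups (x axis); each circle is 1 library, the bar is the mean of 3, and open circles are the no-odor groups. Stoml3 and Omp lie higher with odor in all 3 sets, while Adcy3 and Ano2 lie highest with acetophenone, where 1 library stands at 1160 CPM for Adcy3.

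Gnal, the Golf alpha subunit, rose in 7 of the 9 comparisons. In the AD set its no-odor libraries held 1151, 906 and 1065 CPM, against 2486, 2576 and 1978 CPM with acetophenone. The 3 acetophenone libraries lay above the controls and above every other library of the set, a log2 change of 1.17 ± 0.11 (SE, n = 3 per group, edgeR quasi-likelihood, adjusted p = 4.66e-05). Decanal gave 1216, 1372 and 1375 CPM, a smaller rise of 0.34 ± 0.11 (adjusted p = 0.0343, edgeR). In the OC set the level went from 570.2, 834 and 749.7 CPM without odor to 2028, 1959 and 1957 CPM with the mixture, a log2 change of 1.46 ± 0.20. With octanal it was 1.29 ± 0.20 and with cis-3-hexenol 0.77 ± 0.20. Of the fragrances mint gave a call, at 0.51 ± 0.10 (adjusted p = 0.00347, edgeR), while floral (0.27 ± 0.10, adjusted p = 0.0799) and the FM mixture (0.28 ± 0.10, adjusted p = 0.0823) missed the threshold.

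Gnb1, the beta subunit, rose in 8 of the 9 comparisons, by small amounts, and did not pass with cis-3-hexenol (0.26 ± 0.17, adjusted p = 0.405, edgeR). The AD mixture held 986, 989 and 995 CPM against 742, 748 and 818 CPM without odor. All 3 mixture libraries were above the controls, a log2 change of 0.36 ± 0.08. The changes that passed ran from 0.25 with the FM mixture to 0.78 with octanal. Gnb1 also covered the narrowest span of the 10 genes, 2.46 times from its lowest to its highest library.

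Gng13, the gamma subunit, covered the widest span, 8.58 times from lowest to highest library. Without odor the AD libraries held 196, 226 and 210.4 CPM. Decanal gave 626, 509 and 487 CPM and the AD mixture 797, 495 and 560 CPM. Every library of both groups lay above 2 times the highest control, with log2 changes of 1.36 ± 0.20 and 1.55 ± 0.20 (adjusted p = 0.00041 and 0.000205, edgeR quasi-likelihood). Acetophenone, which raised the other 9 genes, gave 246, 431 and 301 CPM of Gng13, a log2 change of 0.63 ± 0.20 that was not called (adjusted p = 0.0775, edgeR). Without acetophenone replicate 2 it was 0.36 (adjusted p = 0.345), and without replicate 1 it was 0.80 and was called (adjusted p = 0.0253).

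All 3 fragrance groups raised Gng13. The FM no-odor libraries held 382, 394 and 331 CPM, floral 831, 945 and 1044 CPM, mint 1007, 944 and 797 CPM, and the FM mixture 931, 1115 and 1045 CPM. No fragrance library overlapped the controls. The log2 changes were 1.35 ± 0.10, 1.31 ± 0.10 and 1.48 ± 0.11, the largest of the 10 genes in each of these 3 comparisons. In the OC set the no-odor libraries held 420.1, 619 and 535 CPM, octanal 998, 1685 and 741 CPM, cis-3-hexenol 531, 516 and 517 CPM, and the OC mixture 1164, 1121 and 681 CPM. Octanal (1.12 ± 0.26) and the OC mixture (0.91 ± 0.26) raised the gene, and the cis-3-hexenol libraries fell inside the control range (-0.01 ± 0.26, adjusted p = 0.988, edgeR). Without octanal replicate 2, which holds the highest Gng13 of all 36 libraries, the octanal change was 0.75 (adjusted p = 0.0166).

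Adcy3, the cyclase that makes the cyclic AMP signal, followed another order. In the AD set it went from 502, 399 and 470 CPM without odor to 684, 1160 and 787 CPM with acetophenone. The acetophenone libraries all lay above the controls, at a log2 change of 0.94 ± 0.15 (adjusted p = 0.00279, edgeR quasi-likelihood), which became 0.68 (adjusted p = 0.00194) without acetophenone replicate 2, the highest of the 36. Decanal gave 453, 492 and 509 CPM, inside and just above the control range (0.08 ± 0.15, adjusted p = 0.736), and the AD mixture did not pass either (0.26 ± 0.15, adjusted p = 0.24). In the OC set the controls sat at 172, 164 and 177 CPM. Octanal gave 710.1, 303 and 492 CPM, cis-3-hexenol 393, 315 and 305 CPM, and the mixture 406, 524 and 559 CPM. Every odor library of the set was above every control, and the log2 changes were 1.55 ± 0.24, 0.98 ± 0.24 and 1.54 ± 0.24. Octanal replicate 2, highest in Gng13, was the lowest octanal library in Adcy3, and without it the change of Adcy3 was 1.83. In the FM set mint (0.53 ± 0.13) and the FM mixture (0.45 ± 0.13) raised Adcy3, and floral did not pass (0.29 ± 0.13, adjusted p = 0.135, edgeR).

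All 3 channel subunits rose with acetophenone and with each OC odor. Cnga2 is a subunit that binds cyclic AMP and helps form the pore. It went from 149, 219 and 188 CPM without odor to 862, 422 and 589 CPM with octanal. With the OC mixture it held 778, 735 and 742 CPM. The lowest of these odor libraries lay above the highest control, and the log2 changes were 1.75 ± 0.25 and 2.02 ± 0.25 (adjusted p = 9.83e-05 and 3.39e-05, edgeR quasi-likelihood). The change with the OC mixture, 4.06-fold, was the largest of any of the 10 genes in any comparison. Cnga4, a modulatory subunit, changed by 1.5 ± 0.24 and 1.58 ± 0.24 in the same comparisons, and Cngb1, the beta subunit, by 0.99 ± 0.18 and 0.98 ± 0.18. With acetophenone the 3 subunits rose by close amounts, 0.81 ± 0.10 for Cnga2, 0.93 ± 0.17 for Cnga4 and 0.87 ± 0.14 for Cngb1. Cngb1 was the gene with the fewest calls of the 10, 4 of 9: acetophenone and the 3 OC groups. It did not pass with decanal (0.26 ± 0.14), the AD mixture (0.41 ± 0.14), floral (0.17 ± 0.12), mint (0.38 ± 0.12) or the FM mixture (0.24 ± 0.12).

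The balance of the channel transcripts differed between OC groups. Within a library, the ratio of Cngb1 to Cnga2 CPM was 0.282, 0.257 and 0.295 in the OC controls. With octanal it was 0.156, 0.178 and 0.161, and with the OC mixture 0.124, 0.144 and 0.135, below all 3 controls. With cis-3-hexenol it was 0.179, 0.275 and 0.316, which overlaps the controls. In the AD set the ratio lay between 0.156 and 0.209 in all 12 libraries, and in the FM set between 0.119 and 0.168. These ratios are a description and were not tested.

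Ano2, the chloride channel that amplifies the response, rose in 5 comparisons: acetophenone, the 3 OC groups and mint. Acetophenone gave 207, 354 and 233 CPM against 149, 128 and 145 CPM without odor, a log2 change of 0.91 ± 0.15 (adjusted p = 0.00375, edgeR quasi-likelihood). All 3 odor libraries lay above the controls. Decanal gave 120, 131 and 133 CPM, which overlaps the controls, and a log2 difference of -0.14 ± 0.15 (adjusted p = 0.574). In the OC set Ano2 stood at 50.8, 60.6 and 57.3 CPM without odor and rose by 1.69 ± 0.25 with octanal, 1.77 ± 0.25 with the mixture and 0.88 ± 0.24 with cis-3-hexenol.

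Stoml3 rose in all 9 comparisons and Omp in 8. Stoml3 held 2128, 1909 and 2196 CPM in the AD controls and 2580, 4673 and 3076 CPM with acetophenone, with 1 library far above the others. The log2 change of 0.73 ± 0.15 became 0.43 (adjusted p = 0.0109, edgeR) without acetophenone replicate 2, and it lost its call without AD control replicate 2 (0.67, adjusted p = 0.0752). Its largest changes were 1.44 ± 0.21 with octanal and 1.61 ± 0.22 with the OC mixture. Omp, the most abundant of the 10, held 4460.5, 4014 and 4841 CPM in the AD controls and 9476, 9333 and 8807 CPM with decanal. The decanal libraries were near 2 times the controls with little spread, a log2 change of 1.05 ± 0.15 (adjusted p = 0.000305, edgeR). In the FM set Omp rose by 0.73 ± 0.05 with floral, 0.79 ± 0.05 with mint and 0.72 ± 0.05 with the FM mixture, the most precise estimates of the 10 genes. With cis-3-hexenol its libraries (7707, 6316 and 5201 CPM) overlapped the controls (4174, 5099 and 5697 CPM) and it was not called (0.36 ± 0.19, adjusted p = 0.285).

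Without acetophenone replicate 2, which was the highest acetophenone library in all 10 genes, 9 genes were still called. The log2 changes were then 1.09 for Gnal, 0.37 for Gnb1, 0.67 for Cnga2 (from 0.81), 0.63 for Cnga4 (from 0.93), 0.65 for Cngb1 (from 0.87), 0.64 for Ano2 (from 0.91) and 0.60 for Omp (from 0.88). Without octanal replicate 2 all 10 were called, with changes of 1.46 for Gnal, 1.99 for Cnga2, 1.77 for Cnga4, 1.18 for Cngb1, 1.96 for Ano2, 1.26 for Omp, 1.62 for Stoml3 and 0.63 for Gnb1. That library was the lowest of its group in Gnal, Adcy3, the 3 channel subunits, Ano2 and Stoml3, and the highest in Gng13 and Gnb1.

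**Figure D2:**
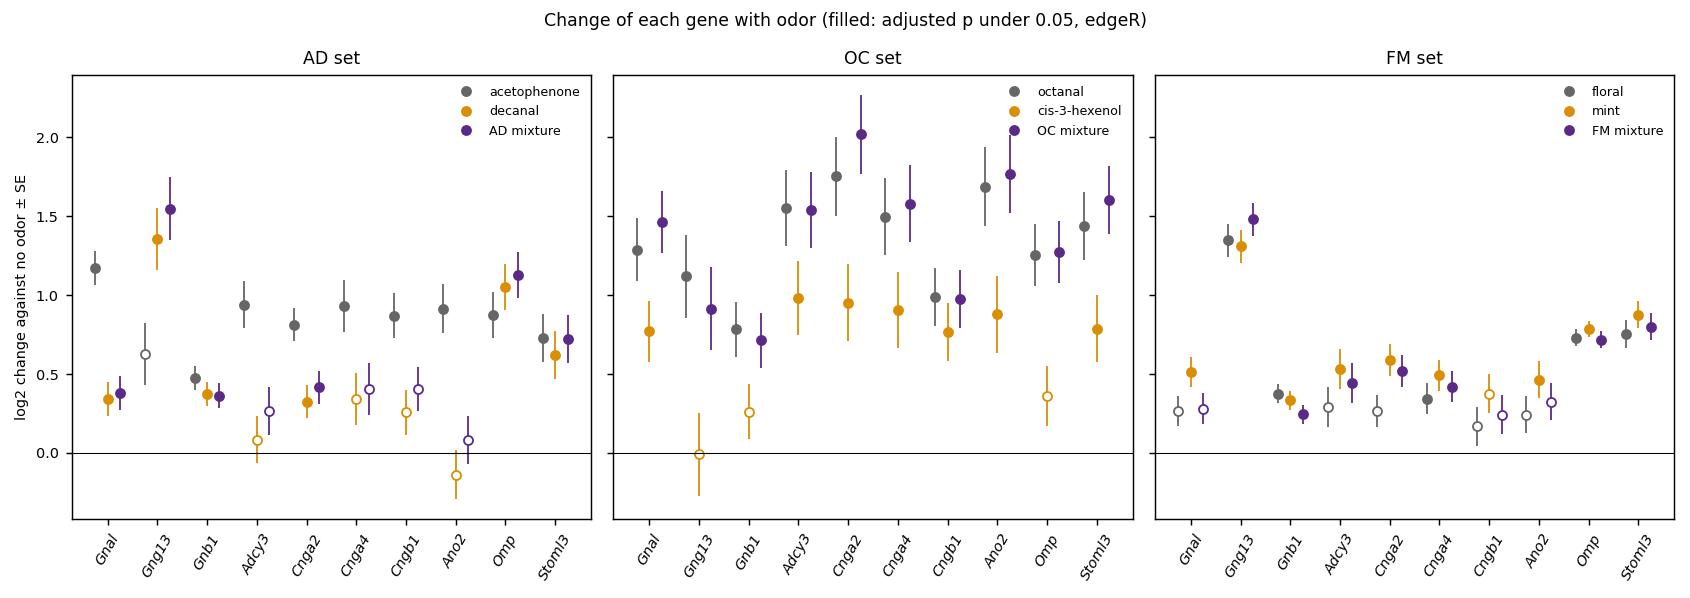
Log2 change of each of the 10 genes (x axis) against the no-odor group of its set (y axis), with bars of 1 SE; filled points passed an adjusted p under 0.05 in edgeR's quasi-likelihood test and open points did not. Gng13 stands above the other genes with decanal, the AD mixture and all 3 fragrances, and below most of them with acetophenone and cis-3-hexenol.

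Direct comparisons between odors of a set tested these differences. Decanal against acetophenone gave 6 genes lower, where 16.5% of all genes tested were lower, and 1 higher, where 12.9% were higher. Lower with decanal were Gnal (-0.83 ± 0.11), Adcy3 (-0.86 ± 0.15), Cnga2 (-0.49 ± 0.10), Cnga4 (-0.59 ± 0.16), Cngb1 (-0.61 ± 0.14) and Ano2 (-1.05 ± 0.16), and higher was Gng13 (0.73 ± 0.20, adjusted p = 0.0122, edgeR). The 2 genes at the extremes, Ano2 and Gng13, had no overlap between the groups. Without acetophenone replicate 2, 8 of the 10 genes were called. The AD mixture against acetophenone gave 6 genes lower (14.4% of all genes lower), at -0.79 ± 0.11 for Gnal, -0.68 ± 0.15 for Adcy3, -0.40 ± 0.10 for Cnga2, -0.52 ± 0.16 for Cnga4, -0.47 ± 0.14 for Cngb1 and -0.83 ± 0.15 for Ano2, and Gng13 higher by 0.92 ± 0.20 (11.3% higher). Against decanal the AD mixture gave 0 calls among the 10 by edgeR's quasi-likelihood test and 0 at an unadjusted p under 0.05 (0.287% of all genes called in either direction). The differences there ran from -0.01 for Gnb1 to 0.22 for Ano2. The 2 comparisons with acetophenone share its libraries, so their likeness is not independent. DESeq2 also gave 0 calls for the AD mixture against decanal.

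In the OC set cis-3-hexenol gave 6 genes lower than octanal (12% of all genes lower): Gng13 (-1.13 ± 0.26), Gnb1 (-0.52 ± 0.17), Cnga2 (-0.80 ± 0.24), Ano2 (-0.81 ± 0.24), Omp (-0.89 ± 0.19) and Stoml3 (-0.65 ± 0.21). Without cis-3-hexenol replicate 2 or 3, or without octanal replicate 1, 2 of the 10 were called. Without octanal replicate 2 the count was 8, the difference of Gng13 was -0.78 and Gnb1 was not called (-0.39). The OC mixture gave 6 genes higher than cis-3-hexenol (7.86% of all genes higher), among them Cnga2 by 1.07 ± 0.24 and Omp by 0.91 ± 0.19. That count was 0 without cis-3-hexenol replicate 2 or 3 and 2 without OC mixture replicate 1. Against octanal the OC mixture gave 0 calls among the 10 by edgeR's quasi-likelihood test or DESeq2, and 0 at an unadjusted p under 0.05 in edgeR (0.0715% of all genes in either direction). Within the FM set no direct comparison called any of the 10 by edgeR's quasi-likelihood test or DESeq2: the FM mixture against floral (0.12% of all genes in either direction, 1 of the 10 at an unadjusted p under 0.05), the FM mixture against mint (0.104%, 1 of the 10) and mint against floral (0.354%, 2 of the 10). Without the filter on low counts, mint against floral gave 2 calls and the FM mixture against mint 1. Octanal and decanal are both straight-chain aldehydes, octanal with the shorter chain. They were run in different sets, so their medians of 1.36 and 0.34, each against its own control, stand side by side without a test.

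Taken within a library, the balance of Gng13 and Adcy3 needs no scaling between libraries. The ratio of Gng13 to Adcy3 CPM was 0.391, 0.566 and 0.448 in the AD controls and 0.359, 0.371 and 0.383 with acetophenone. With decanal it was 1.38, 1.03 and 0.956 and with the AD mixture 1.44, 0.903 and 1.03, above all 6 of those libraries. In the FM set it was 0.94, 0.883 and 0.938 without odor and between 1.16 and 2.24 in the 9 fragrance libraries. The OC set started higher, at 2.45, 3.78 and 3.02 without odor, and stood at 1.35, 1.64 and 1.7 with cis-3-hexenol, below all 3 controls. With the OC mixture it was 2.86, 2.14 and 1.22. The octanal libraries were split, with 1.41 and 1.51 in replicates 1 and 3 and 5.56 in replicate 2.

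Gng13 is the shortest of the 10 by annotated exon length, 773 bases. Omp has 2144, Stoml3 2150, Cnga4 2663, Cnga2 3095, Gnb1 4268, Ano2 5385, Adcy3 6246, Cngb1 9355 and Gnal 11172. Short and long genes in general differed in several of the same comparisons. The shortest 25% of the protein-coding genes tested had a median log2 change of -0.12 with acetophenone and 0.11 with decanal, and the longest 25% had 0.10 and -0.05. With floral the shortest and longest groups stood at 0.09 and -0.09, and with cis-3-hexenol at -0.21 and 0.12. The short-gene median was 0.09 with the AD mixture, 0.04 with mint and 0.06 with the FM mixture. With octanal both length groups lay below 0, at -0.16 and -0.10, as with the OC mixture, at -0.22 and -0.08. In every comparison of an odor with no odor, the sign of the short-gene median was that of the change of Gng13 less that of Adcy3. This is 1 pair of the 10 genes. Omp, Stoml3 and Cnga4 also lie within the bound of 2671 bases used for short genes per library. Over the 36 libraries, each relative to its no-odor mean, their Pearson's r of log2 CPM with Gng13 was 0.77, 0.53 and 0.19. With Adcy3 it was 0.60, 0.85 and 0.97. Across the 12 AD libraries the median level of short minus long genes ran from -0.30 in acetophenone replicate 1 to 0.24 in decanal replicate 1. Octanal replicate 2, with the highest ratio, stood at 0.09, against -0.11 and -0.05 in the other octanal libraries, and an OC control also stood at 0.09. The part of length or of RNA quality in these results was not tested.

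Several calls of modest size depended on 1 library. In the AD set, the rise of Cnga2 with decanal (0.32) was not called without AD control replicate 1 or 2 or any 1 decanal library (0.24 to 0.35). The rise of Gnal was not called without AD control replicate 2 or 3 or decanal replicate 2 or 3 (0.25 to 0.36), and with the AD mixture without AD control replicate 2 or 3 or mixture replicate 1 or 3 (0.29 to 0.40). The rise of Cnga2 with the AD mixture was not called without AD control replicate 2 (0.33). Against acetophenone, Cnga4 in the AD mixture lost its call without mixture replicate 2 or 3 or acetophenone replicate 2 (-0.23 to -0.54), and Cngb1 without mixture replicate 1 or 3 or acetophenone replicate 2 (-0.25 to -0.46). In decanal against acetophenone, Gng13 lost it without acetophenone replicate 1 (0.56) or decanal replicate 1 (0.61) and Cnga4 without decanal replicate 1 (-0.55).

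In the OC and FM sets, beside the cis-3-hexenol calls given above, further calls depended on 1 library. With the OC mixture Gng13 was not called without OC control replicate 1 (0.78) or mixture replicate 1 (0.79). With mint, Adcy3 lost its call without FM control replicate 1 (0.54) or 3 (0.45), and Ano2 without FM control replicate 1 or 3 or mint replicate 2 (0.39 to 0.48). With floral, Cnga4 lost it without any 1 FM control or floral replicate 1 or 2 (0.28 to 0.39). With the FM mixture, Adcy3 lost it without FM control replicate 1 or 3 or mixture replicate 1 or 2 (0.31 to 0.48), Gnb1 without FM control replicate 3 or mixture replicate 1 or 3 (0.21 to 0.24) and Cnga4 without FM control replicate 3 (0.36) or mixture replicate 1 (0.33). Conversely, Cngb1 with mint was called without mint replicate 1 (0.48) and Gnal with the FM mixture without mixture replicate 3 (0.36). The calls of Omp with the 8 odors that raised it, and of Gng13 with the fragrances, did not change in any fit that left out 1 library.

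**Figure D3:**
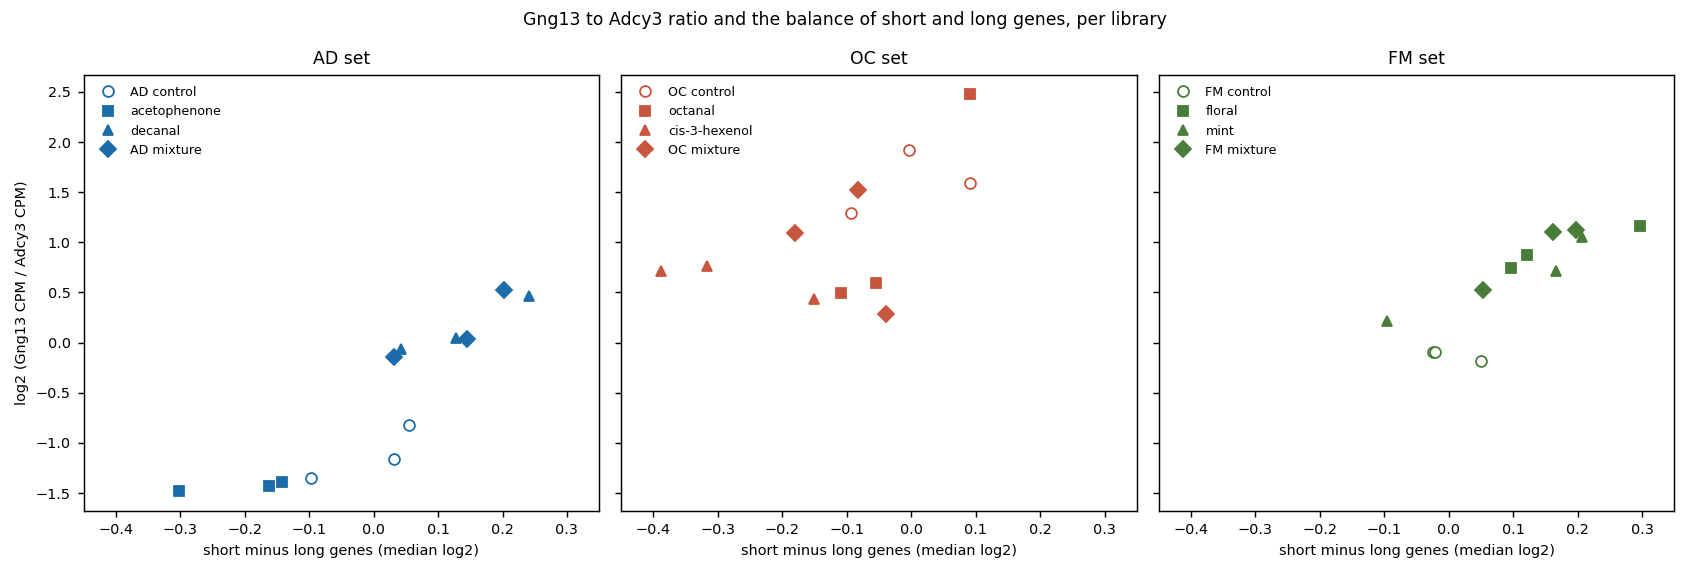
Log2 ratio of Gng13 to Adcy3 CPM (y axis) against the median log2 level of short minus long genes, relative to the mean of the set's no-odor group (x axis), with 1 symbol per library and open circles for no odor. In the AD set decanal and AD mixture libraries stand above acetophenone and control libraries on the y axis, and acetophenone libraries lie farthest left; octanal replicate 2 is the topmost point of the OC set.

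Markers of other cells moved with several of these comparisons. The 16 other markers of mature olfactory neurons had median log2 changes of 0.32, 0.19 and 0.23 in the AD set, 1.14, 0.55 and 1.23 in the OC set and 0.29, 0.51 and 0.43 in the FM set, in the same order as above. Called higher were 7, 4 and 4 of them in the AD set, 14, 6 and 14 in the OC set and 9, 10 and 10 in the FM set. Called lower were 1 with decanal and 2 with the AD mixture, where single markers ran from -0.44 to 0.56 and from -0.50 to 0.67. The shares of all genes called are given above. The medians of the 10 genes and of these markers lay close with mint (0.52 and 0.51) and the FM mixture (0.43 and 0.43) and apart with acetophenone (0.87 and 0.32). All 8 red blood cell markers were lower with each of the OC odors, with medians of -2.57, -1.89 and -2.48. Their summed level was 78231 to 92800 CPM in the OC controls and 7465 to 23225 CPM with octanal, 19578 to 28176 CPM with cis-3-hexenol and 9114 to 20622 CPM with the mixture. Bone and osteoclast markers were lower in 9, 6 and 9 of 9 and neutrophil markers in 7, 3 and 6 of 7. The bone markers summed to 7288 to 10941 CPM in the controls and 2159 to 5207 CPM with octanal.

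In the AD set the red cell markers leaned opposite ways with acetophenone (median -1.37, 0 of 8 called) and decanal (1.24, 2 of 8 called higher). They summed to 15547 to 21022 CPM in the controls, 2570.4 to 13145 CPM with acetophenone and 39422 to 42218 CPM with decanal. Globose basal markers were lower in 4 of 7 with decanal and 5 of 7 with the AD mixture, and neutrophil markers were higher in 3 of 7 with each. With floral 5 of 8 red cell markers were higher (median 0.74), summing to 38423 to 74151 CPM against 30364 to 32984 CPM without odor. Bone markers were lower in 5 of 9 with acetophenone, 2 with floral, 7 with mint and 6 with the FM mixture. Sustentacular markers, of the epithelium's supporting cells, were lower in 4 of 7 with decanal and in 4 of 7 with floral. The part of these other cells in the results for the cascade genes was not tested.

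**Figure D4:**
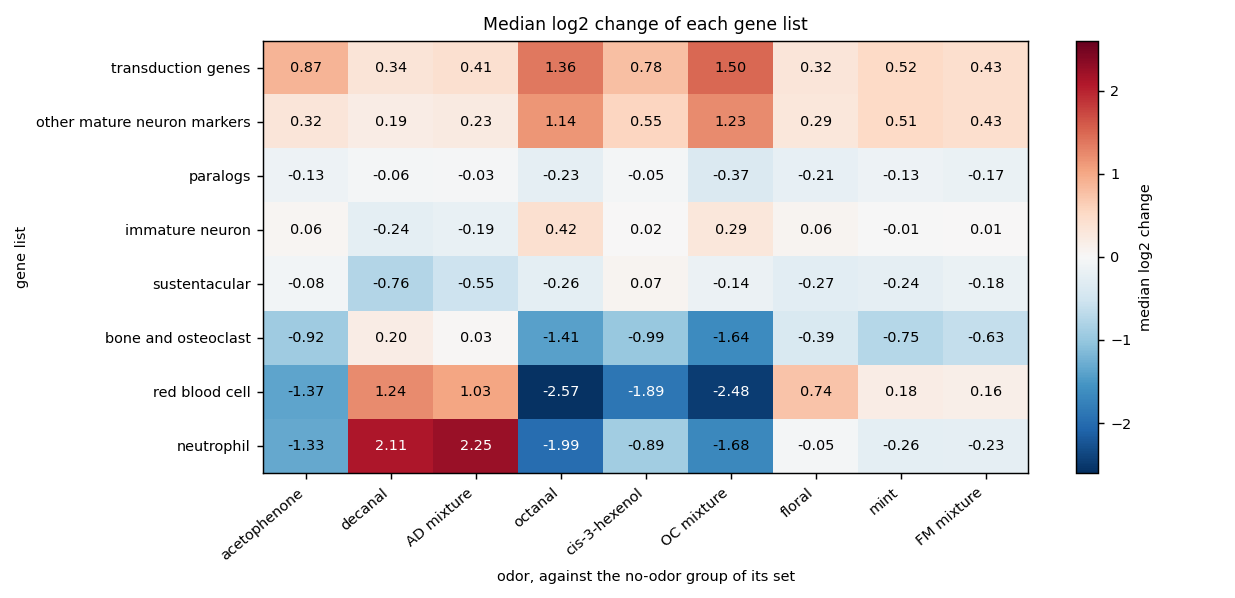
Median log2 change (color and printed value) of each gene list (rows) with each odor against the no-odor group of its set (columns), from edgeR. The transduction genes and the other mature neuron markers are above 0 in all 9 columns, and the red blood cell and bone lists are below 0 in the 3 OC columns.

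When each library was instead scaled to the 16 other mature neuron markers, fewer of the 10 genes were called, and which ones depended on the odor. This scaling asks whether a gene moved more than those markers did, and it shifts the median of all genes by -0.14 to -1.21. With acetophenone 7 of the 10 genes were called higher in this scaling (1.11% of all genes called higher): Gnal by 0.71, Adcy3 by 0.46, Cnga4 by 0.45, Ano2 by 0.43, Cngb1 by 0.39, Omp by 0.39 and Cnga2 by 0.35. With decanal, the AD mixture and each fragrance group, 3 genes were called and they were Gng13, Omp and Stoml3 every time, Gng13 by 0.89 to 1.37. The share of all genes called higher there was 4.96% with decanal, 4.23% with the AD mixture, 1.51% with floral, 1.54% with mint and 1.35% with the FM mixture. With octanal 2 were called, Cnga2 (0.59) and Ano2 (0.51), where 1.6% of all genes were higher, and with cis-3-hexenol 0 (0.552% higher), against 7 when scaled by TMM. With the OC mixture Cnga2 (0.81) and Ano2 (0.55) were higher (1.46% of all genes) and Gnb1 was lower (-0.50), as were 80.8% of all genes. Gng13 with octanal was at 0.03 ± 0.29 on this scale. Between odors, the calls of the OC mixture against cis-3-hexenol and of cis-3-hexenol against octanal were all lost. Cngb1 was called in their place, at -0.53 and 0.47, opposite in direction to the calls it replaced. On this scale the median of all genes against no odor was -1.26 with the OC mixture, -1.15 with octanal and -0.43 with cis-3-hexenol. These medians differ in the same directions as Cngb1, so its calls are not particular to it. The share of all genes called between odors on this scale is not given here. Decanal against acetophenone lost the calls of Cnga2 (-0.16), Cnga4 (-0.25) and Cngb1 (-0.27), while Omp (0.52) and Gnb1 (0.23) were called higher. The AD mixture against acetophenone lost the channel subunits too (-0.11, -0.22 and -0.16), and Omp was called higher (0.56). Gnal, Adcy3, Ano2 and Gng13 kept their calls in both.

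Levels between genes can be compared per kilobase of exon. In the FM controls Omp stood at 3341 CPM per kb and Stoml3 at 1248, followed by Gng13 at 477, Gnb1 at 238, Cnga2 at 179, Gnal at 132, Cnga4 at 87.8, Adcy3 at 64.3, Ano2 at 26.6 and Cngb1 at 9.57. The order of Omp, Stoml3 and Gng13 at the top and Cngb1 at the bottom was the same in the AD and OC controls, where Cngb1 stood at 8.32 and 5.48 CPM per kb. These lengths join the exons of all annotated transcripts of a gene, up to 11172 bases for Gnal and 9355 for Cngb1, so they overstate the length of any 1 transcript. Ranked by mean CPM over the 12 groups, 84 of 110 pairs of neighbouring groups lay closer than the larger SD of the pair. The steps beyond the spread included the one from acetophenone (877 ± 250.5 CPM, SD, n = 3) down to mint for Adcy3 and the one from cis-3-hexenol down to the OC controls for Cnga2 (358 ± 103 against 185 ± 35.0 CPM). Such orders cross sets, and set and batch cannot be told apart.

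Library by library, Gnal, Adcy3, the channel subunits and Ano2 varied closely together, and Gng13 varied apart from these. Over the 36 libraries, each taken relative to the no-odor mean of its set, Pearson's r of log2 CPM was 0.97 for Adcy3 with Ano2 and for Adcy3 with Cnga4, and 0.94 for Gnal with Cnga2. For Gng13 it was 0.09 with Adcy3, 0.03 with Ano2, but 0.77 with Omp, 0.58 with Gnb1 and 0.53 with Stoml3. Omp in turn stood at 0.60 with Adcy3 and 0.55 with Ano2. These coefficients describe libraries that share sets, depth and tissue make-up, and carry no test. The genes outside the list whose profile was nearest to the mean of the 10 were Impdh1 (r = 0.977), Dmtn (0.977), Snrk (0.974), Dyrk4 (0.973) and Lingo1 (0.971), out of 14576 candidates over the same 36 libraries. Impdh1, which encodes an enzyme of guanine nucleotide synthesis, rose in all 9 comparisons, by 0.43 to 1.29. Dmtn, Snrk and Dyrk4 were not called with decanal, Dmtn and Lingo1 not with cis-3-hexenol, and Lingo1 not with floral. All of them were picked for their likeness to the 10 in these same libraries, so their changes are no independent result.

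Since several of the genes varied together, the promoters of the 10 were searched for CCCNNGGG, the core of the site bound by the EBF factors (first named Olf-1 for its place in olfactory genes). The window ran over 300 bases around each RefSeq start (GRCm38.p6), and since the motif reads the same on both strands 1 search covers both. Of the 10 genes 8 had a window, all but Gnal and Omp. Of the 8, 5 held the motif in at least 1 window, against 15.4% of all genes with a window. Ano2, Adcy3 and Gng13 had more than 1 window, and not every window of Ano2 and Gng13 held the motif. Counted by window and not by gene, 13.7% of all windows held it. Of the 12 other mature neuron markers with a window 5 held it. The stretches below show the match upstream of the start in 4 genes, including Gng13, with the motif in capitals (in Gng13, 2 matches that overlap by all but 1 base). They are written 5′ to 3′ on the strand of the gene. The motif begins 95 bases before the start for Gng13 (chr17:25717051-25717111, plus strand), 66 for Cnga2 (chrX:71991757-71991816, plus), 129 for Cngb1 (chr8:95306681-95306740, minus) and 67 for a downstream start of Ano2 (chr6:125711095-125711154, plus).
Gng13: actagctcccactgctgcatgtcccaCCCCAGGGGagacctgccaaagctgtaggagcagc
Cnga2: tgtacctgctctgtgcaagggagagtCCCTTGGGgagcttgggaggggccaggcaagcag
Cngb1: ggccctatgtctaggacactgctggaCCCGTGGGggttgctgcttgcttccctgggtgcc
Ano2: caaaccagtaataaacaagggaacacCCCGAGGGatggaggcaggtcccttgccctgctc
In Cnga4 the motif lay after the start, and the windows of Stoml3, Gnb1 and Adcy3 did not hold these letters. A match is a run of letters, not a measured binding site.

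A list of genes that end or tune the response was also looked at, and some of its genes were called with odor. The list is broader than that name, since it also holds Gucy2d, Cnga3 and Slc12a2, which have other roles. Of 29 such genes 26 were tested, and 8 were called higher with acetophenone, 6 with decanal, 7 with the AD mixture, 12, 4 and 11 with the OC odors and 5, 6 and 5 with the fragrances, with medians between 0.05 and 0.33. Lower were 1 with acetophenone, 6, 1 and 5 with the OC odors and 1 with mint. The shares of all genes called, given above, were for example 4.22% higher with acetophenone, 17.9% higher and 14.4% lower with octanal, 2.58% higher with cis-3-hexenol and 8.7% higher with floral. Pde4a, a cyclic AMP phosphodiesterase, and Rgs3, a regulator of G protein signalling, were each higher in 8 of 9 comparisons. Pde1c, the phosphodiesterase of the cilia, was higher in 4: acetophenone (0.88 ± 0.13) and the 3 OC groups (0.87 to 1.59). With decanal it stood at -0.12 ± 0.13 (adjusted p = 0.561, edgeR). Ric8b, an exchange factor for Golf, was higher in 6. Arrb1 (beta-arrestin 1) was lower in 4 and Slc8a3, a sodium-calcium exchanger, in 3, at median levels of 16.6 and 2.8 CPM over the libraries. Scaled to the mature neuron markers, Ric8b was called higher in 3, Pde4a and Pde1c in 2 and Rgs3 in 0, and each of these but Ric8b lay below 0 in at least 1 comparison.

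Relatives of the 10 genes did not follow them as a class. Of 45 paralogs 38 were tested in the AD and OC sets and 36 in the FM set, and their median change was below 0 in all 9 comparisons, from -0.03 to -0.37. Stom, the stomatin paralog of Stoml3, was higher in all 9, from 0.50 ± 0.12 with floral to 1.89 ± 0.20 with the OC mixture, and in 7 when scaled to the neuron markers. Stoml1 was higher in 5, Gnb5 in 7 and Gnao1, the Go alpha subunit, in 5, but scaled to the neuron markers all 3 were called higher in 0, Stoml1 was lower in 2 and Gnao1 lay below 0 in all 9. Under total counts Stoml1 was higher in 2 and Gnb5 and Gnao1 in 3. Gnas, the ubiquitous stimulatory alpha subunit closest to Gnal, was lower in 5: decanal (-0.40 ± 0.10), the AD mixture (-0.42 ± 0.10), floral (-0.28 ± 0.07), mint (-0.36 ± 0.07) and the FM mixture (-0.37 ± 0.07). Its change was below 0 in all 9 comparisons except under scaling by total counts, where it was above 0 in 1. Gnb2, the beta subunit gene related to Gnb1, was lower in 3 (its change was 0.01 in 1 of the others) and Gnai2, an inhibitory alpha subunit, in 5. The cascade genes themselves overlap others on the opposite strand, Gnal with Mppe1, Gng13 with Chtf18 and Adcy3 with Cenpo, and whether counting used strand is not given in the sources used here. The overlapping genes held 30672, 9059 and 17464 counts over all libraries, against 1270545, 534453 and 397605 for the 3 members.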

How the data were processed

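The authors deposited 3 tables of expected counts per gene, 1 per set. Per the submitters' processing notes, STAR 2.7.10b, Salmon 1.10.1, R 4.4.2 and GRCm39 were used; which step gave the counts is not given in the sources used here. Per the labels' protocols, TruSeq Stranded mRNA libraries of pS6-immunoprecipitated RNA were sequenced on a NovaSeq instrument. From 11.1% to 16.4% of values were not whole, so counts were rounded. Symbols and exon lengths came from the GENCODE annotation provided, which named 52029 of 57010 identifiers; gene coordinates from it are not printed, since its build differs from the authors'.

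Each set was fitted on its own 12 libraries with edgeR 4.0.16 in R 4.3.3 (filterByExpr with a count minimum of 10 and a total of 15, TMM scaling, prior count 0.125, glmQLFit and glmQLFTest, 2-sided, Benjamini-Hochberg over all genes tested, called at an adjusted p under 0.05). The SE is the log2 change divided by the square root of F. CPM are on TMM-scaled libraries of a set. Depth is given above as the range of library totals. Alternatives were DESeq2 1.42.0 (its test and its size factors), total counts, scaling to mature neuron markers, no filter, a replicate block, all 36 libraries in 1 fit, only the 6 libraries compared, and leaving out each replicate. Fits were tested on simulated data. The replicates differed beyond counting noise in every pair (lowest chi-square per gene 9.71). Named genes were the 10 members and the 5 of most similar profile. The members and gene lists were chosen with earlier results of these data known, and p-values measure the spread between the replicates as labelled.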

Additional observations from a re-analysis of the deposited data

How the results depend on the processing

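Recomputed under each alternative, 218 counts of called genes stayed within 1.5 times the count reported and 34 did not; for single genes 1314 values kept direction and side of the threshold, 162 lost a call, 24 gained one and 8 turned direction. Scaling by total counts moved the median of all genes by -0.14 to 0.14. Scaled to the mature neuron markers, the counts were 3 (AD mixture, decanal, floral, mint, FM mixture and OC mixture), 2 (octanal) and 0 (cis-3-hexenol). On that scale the OC mixture against cis-3-hexenol and cis-3-hexenol against octanal gave 1 each. Both were Cngb1, opposite to the calls reported and in the direction in which the medians of all genes differed. With all 36 libraries in 1 fit the counts were 3 for floral, 4 for mint and 3 for the FM mixture. Total counts gave 4 for the FM mixture and 2 for cis-3-hexenol against octanal. With only the 6 libraries compared the AD mixture against acetophenone gave 4 and cis-3-hexenol against octanal 1. Without the filter floral gave 8, mint against floral 2 and the FM mixture against mint 1. The cause was not tested.

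Leaving out each replicate in turn, the counts ran from 0 to 1 for cis-3-hexenol, from 0 to 7 for the OC mixture against cis-3-hexenol, from 2 to 8 for cis-3-hexenol against octanal and from 4 to 7 for the FM mixture (4 without FM control replicate 3 or FM mixture replicate 1); fits with fewer samples have less power. Changes that turned direction were near 0 and not called: Adcy3 with decanal (-0.0072 to 0.155 on leaving out a replicate), Ano2 with the AD mixture (-0.0137 with total counts) and Gng13 with cis-3-hexenol (0.0134 with all 36 libraries, 0.13 with total counts, -0.15 to 0.10 on leaving out a replicate). Same-numbered replicates correlated from -0.378 to 0.305 in their deviations, so the numbers do not pair the samples. With the replicate block, the count for decanal was 4 against 6, that of the AD mixture against acetophenone 6 against 7 and that of the FM mixture 6 against 7, and the others were as reported; Gng13 with cis-3-hexenol was 0.0061 under the block. Depth did not limit detection of these genes, since the lowest library held 42.1 CPM of Cngb1.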
